A study of Homo sapiens with 48 samples.

Results

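The data are RNA-sequencing read counts for 10 genes of antigen presentation through MHC class II in AMO1, an established human plasmacytoma line that serves as a model of multiple myeloma. The 10 genes are the rows of the count table with the symbols HLA-DRA, HLA-DRB1, HLA-DPA1, HLA-DPB1, HLA-DQA1, HLA-DQB1, HLA-DMA, HLA-DMB, CD74 and CIITA, taken from 58302 genes in all. The HLA genes lie on chromosome 6, CD74 on chromosome 5 and CIITA on chromosome 16. The 48 libraries came from 4 clones that carry doxycycline-inducible short hairpin RNAs, shIRE1 clones 1 and 3 against IRE1 (gene ERN1) and shXBP1 clones 1 and 18 against XBP1. Each clone was sampled before doxycycline (0 h) and after 24, 48 and 72 h at 0.2 µg/ml, with 3 biological replicates per group, which makes 16 groups. All 4 lines carry a hairpin, no line with a non-targeting hairpin is among the libraries analysed here, and each line is 1 clone, so the 0 h samples of the same clone were the only controls. An effect of doxycycline itself therefore could not be told apart from that of a hairpin within 1 clone. The shIRE1 and shXBP1 clones received the same doxycycline schedule.

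MHC class II molecules are pairs of an alpha and a beta chain that carry peptides to the cell surface for CD4+ T cells. HLA-DR, HLA-DP and HLA-DQ present the peptide, the invariant chain CD74 occupies the groove during assembly, and HLA-DM exchanges the CD74 remnant for peptide. Their transcription depends on the coactivator CIITA, which binds no DNA itself and is recruited by RFX, CREB and NF-Y on the X and Y boxes of class II promoters. When B cells become plasma cells, the repressor PRDM1 (BLIMP1) turns CIITA down and class II falls with it. IRE1 is the sensor of the unfolded protein response that splices XBP1 mRNA, and XBP1 is the transcription factor that results.

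The promoter sequences of the class II genes are shown first, because the Y box, and in HLA-DRB1 also the first bases of the X box, can be seen in them. Of the 10 genes, 8 had a promoter window in RefSeq (GRCh38.p14), from 250 bases before to 50 after a start site, with 9 windows in all. HLA-DRA and CIITA had none. The stretches below run 5′ to 3′ on the strand of the gene, and the capitals mark the Y box letters ATTGG and, in HLA-DRB1, also the X half-site letters AGCAAC.
HLA-DRB1, chr6:32589882-32589939, minus strand: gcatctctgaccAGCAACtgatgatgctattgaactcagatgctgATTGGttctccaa
HLA-DPB1, chr6:33075846-33075903, plus strand: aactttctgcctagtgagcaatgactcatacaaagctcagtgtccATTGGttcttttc
HLA-DQA1, chr6:32637293-32637350, plus strand: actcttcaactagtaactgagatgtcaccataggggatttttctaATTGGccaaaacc
HLA-DQB1, chr6:32666733-32666790, minus strand: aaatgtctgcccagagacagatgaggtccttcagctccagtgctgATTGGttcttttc
HLA-DMA, chr6:32953134-32953221, minus strand: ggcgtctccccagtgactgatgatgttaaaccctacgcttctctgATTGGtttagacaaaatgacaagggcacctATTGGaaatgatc

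Searched on both strands, ATTGG stood in the windows of 7 of these 8 genes, beside 34.6% of 35116 RefSeq promoters of the same length. AGCAAC stood in 3 genes, beside 12.8% of all promoters. CGTCA, the half-site letters of the palindromic site bound by CREB, stood in 4 genes, beside 24.6%. An AGCAAC followed by ATTGG after 10 to 40 bases was found only in HLA-DRB1, with the first 79 and the second 46 bases before the start and 27 bases between them. That order and spacing was present in 0.424% of all promoters on either strand and in 0.236% on the strand of the gene. The letters AGNGAAAG, the core of the PRDM1 motif, were found in 1 gene, in the second of the HLA-DPA1 windows and on the strand opposite to the gene, beside 7.99% of all promoters. They are shown here, reverse-complemented and in capitals, as the only such match.
HLA-DPA1, chr6:33073828-33073875, minus strand: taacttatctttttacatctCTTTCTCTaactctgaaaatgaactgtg
These matches describe the letters of the windows and not binding in these cells.

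Total counts per library ran from 19177855 to 40767202. ERN1 mRNA fell in both shIRE1 clones, from 150–155 CPM (a gene's count relative to its library's total, on the usual scale of counts per unit of sequencing depth, with totals scaled by edgeR's TMM factors) at 0 h to 101–104 at 72 h in clone 1 and from 421–451 to 122–128 in clone 3. The ERN1 mean in shIRE1 clone 1 at 48 h was 96.4 CPM. ERN1 also changed in the shXBP1 clones. It rose by 0.72 on the log2 scale at 72 h in clone 1 (edgeR adjusted p = 8.74e-07). In clone 18 it fell by 0.29 at 48 h (edgeR adjusted p = 0.0146). XBP1 mRNA fell from 159–173 to 33.2–34.8 CPM in shXBP1 clone 1 and from 166–178 to 31.7–41.8 in clone 18. Some libraries did not sit with the clone on their label. At 25 genes that parted the shIRE1 clones by at least 1.5 on the log2 scale at both 0 and 24 h, the libraries labelled clone 1, 72 h lay on the level of clone 3 (median position 0.026 to 0.053, where 1 is clone 1 and 0 is clone 3), and those labelled clone 3, 48 h lay on that of clone 1 (0.962 to 1.102). At 48 and 72 h, IRF4 was at 576 and 603 CPM under the label clone 1. Under the label clone 3 it was at 313 and 335 CPM. If the groups labelled clone 1, 72 h and clone 3, 48 h were exchanged, IRF4 would go from 576 to 313 CPM in clone 1. It would go from 603 to 335 CPM in clone 3. IRF4 therefore cannot tell the labels from such an exchange. At 386 genes that parted the shXBP1 clones, the library labelled clone 18, 72 h, replicate 3 lay at 0.929, and the other clone 18 libraries lay between -0.009 and 0.057. Groups are given below as labelled, and the main results of the 10 genes that rest on these libraries are also given without them. For other genes, values at 72 h in shIRE1 clone 1 are from the libraries that sit with clone 3.

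**Figure D1:**
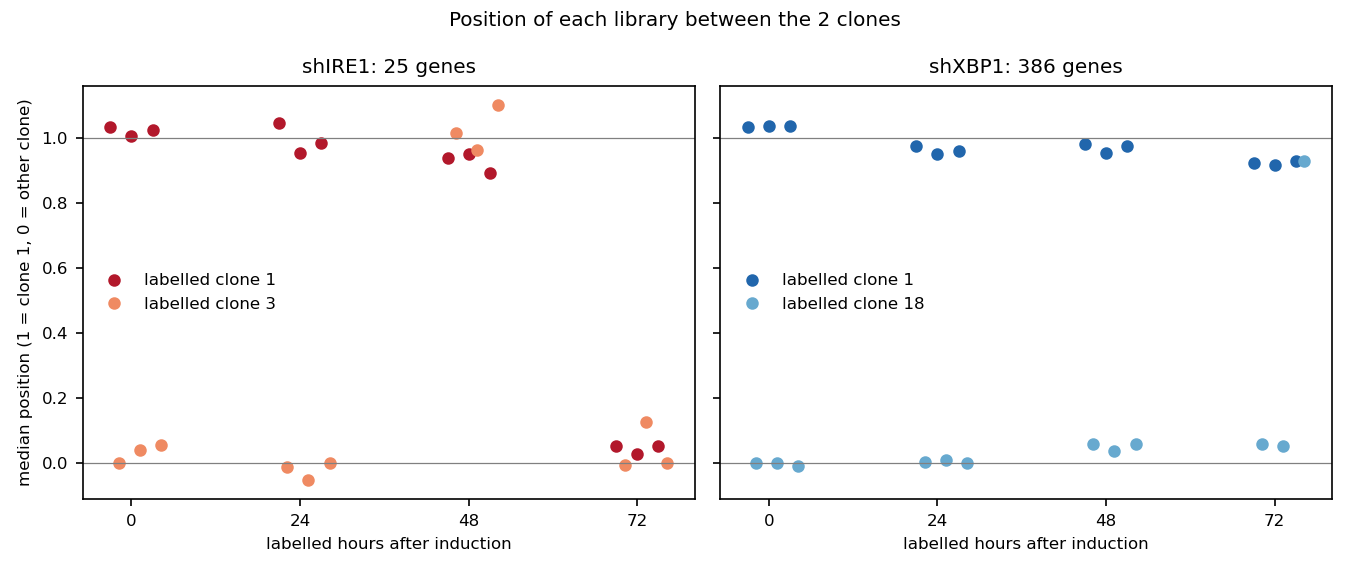
Median position of each library (points) between the clones of a hairpin, on a scale where 1 is clone 1 and 0 is the other clone, against the labelled hours, from 25 genes for shIRE1 and 386 for shXBP1 that parted the clones at 0 and 24 h. The libraries labelled shIRE1 clone 3, 48 h sit near 1, those labelled shIRE1 clone 1, 72 h near 0, and the third replicate of shXBP1 clone 18, 72 h at 0.929.

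All 10 genes were expressed before induction in every clone, although AMO1 has a plasma cell phenotype. The lowest group mean of any of the 10 was 3.85 CPM, of HLA-DMB in shXBP1 clone 1 at 0 h. Per kilobase of annotated exon at 0 h, HLA-DRA (291 to 464 CPM per kb over the 4 clones) and CD74 (277 to 419) were the most abundant. HLA-DRB1, HLA-DMA and HLA-DPA1 followed between 15.6 and 41.7 CPM per kb, and HLA-DQB1, HLA-DPB1 and HLA-DQA1 between 3.24 and 17.8. CIITA (1.69 to 2.44) and HLA-DMB (0.834 to 1.41) were the lowest. Neighbours within these sets overlapped between clones. The exon lengths are those of all annotated isoforms together, which lowers the value of genes with long or many isoforms such as CIITA. Alpha and beta chains of a pair were not at equal levels on this scale. The exon lengths used also differed within a pair, as with 1244 bases for HLA-DRA and 3083 for HLA-DRB1. Whether the mRNA levels of the chains differed was not tested.

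After induction of shIRE1 the class II genes, CD74 and CIITA rose together in both clones, and after induction of shXBP1 their log2 fold changes lay between -0.43 and 0.65. The -0.43 is HLA-DPA1 in shXBP1 clone 18 at 72 h, and it was -0.10 without the replicate that sits with clone 1. At 24 h all 10 were higher in shIRE1 clone 1, with a median log2 fold change of 0.33, where 32.4% of 17154 genes tested were called higher. In shIRE1 clone 3, 9 of 10 were higher at 24 h, with a median of 0.28, where 22.8% of 17204 genes were. At 48 h all 10 were higher in each clone, with medians of 1.46 in clone 1 and 1.38 in clone 3, where 33.9% and 31.6% of all genes were called higher. At 72 h all 10 were again higher in each clone, with medians of 1.45 and 1.42, against 32.5% and 29.7% of all genes. The values of clone 3 at 48 h and of clone 1 at 72 h rest on the libraries that sit with the other clone. In these bulk samples, more cells with a transcript and more transcript per cell cannot be told apart. The median over all genes tested lay between 0.015 and 0.0421 in these comparisons. A call is a Benjamini-Hochberg adjusted p under 0.05 over all genes tested, from edgeR's quasi-likelihood test.

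The step from 24 to 48 h was itself called for all 10 genes in both clones, with log2 changes of 0.60 to 1.52 in clone 1 and 0.75 to 1.52 in clone 3, where 16% and 17.2% of all genes were called higher. From 48 to 72 h edgeR called none of the 10 in either clone, where 0.869% and 0.936% of all genes were called in either direction. At an unadjusted p under 0.05, 1 of the 10 passed in clone 1 and 2 in clone 3 for that step, and DESeq2 and limma also called 0. In both clones the step from 48 to 72 h compares libraries that sit with different clones, so the difference between 48 and 72 h and the difference between clones cannot be told apart in them. If the groups labelled clone 1, 72 h and clone 3, 48 h were exchanged, each labelled step would compare the clones at the same hour. A plateau therefore cannot be read from the 0 calls. The step from 24 to 48 h is free of the libraries of these groups in clone 1 and not in clone 3.

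**Figure D2:**
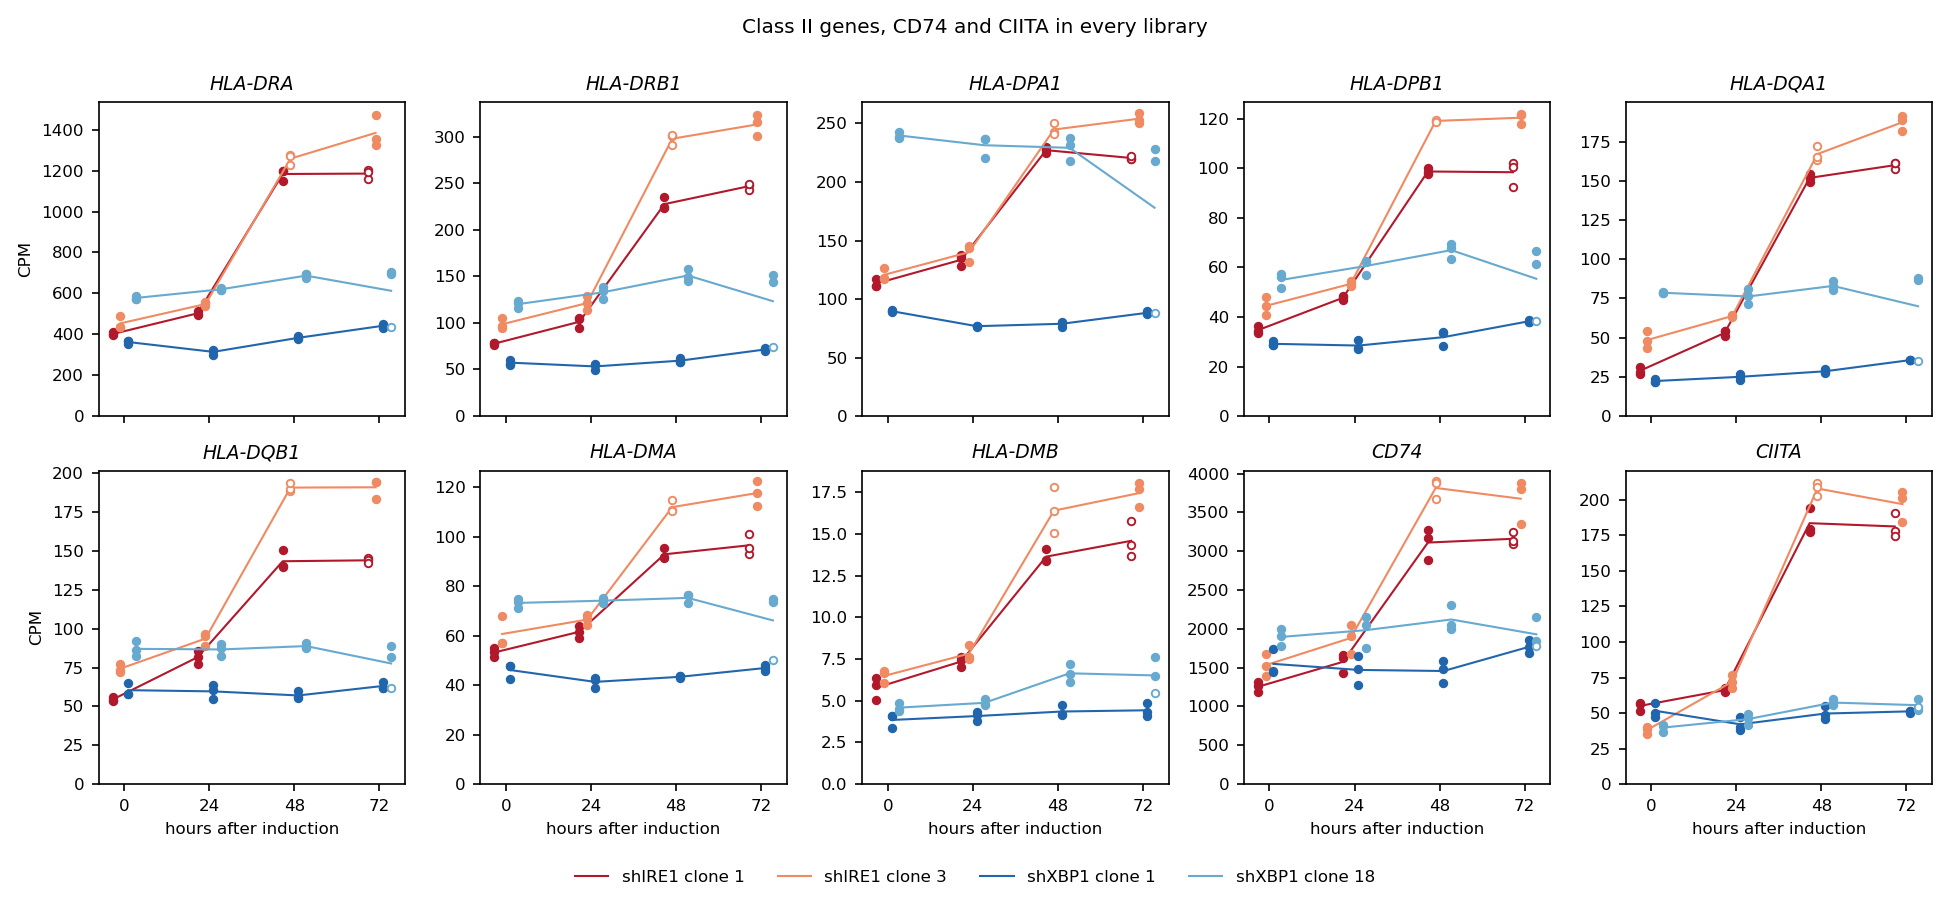
CPM of each of the 10 genes (y axes, from 0) in every library (points) at 0, 24, 48 and 72 h of induction, with lines through the group means of 3 libraries and open circles for libraries that sit with another clone than their label. In the shIRE1 clones all 10 genes climb between 24 and 48 h, as HLA-DRA does from 503 to 1184 CPM in clone 1, and the log2 changes of the shXBP1 clones against 0 h lie between -0.43 and 0.65. The -0.43 is HLA-DPA1 in shXBP1 clone 18 at 72 h, where 1 library sits with clone 1.

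CIITA, the master regulator, was at 51.2, 57.1 and 56.7 CPM before induction in shIRE1 clone 1, at 65.7, 64.9 and 67.7 at 24 h, at 194, 177 and 180 at 48 h and at 191, 178 and 175 at 72 h. In shIRE1 clone 3 it was at 35.2, 40.5 and 38.7 CPM at 0 h, at 67.5, 76.8 and 72.0 at 24 h, at 212, 203 and 209 at 48 h and at 206, 201 and 184 at 72 h. No library at 24 h overlapped those at 0 h or 48 h in either clone. The log2 fold change against 0 h was 1.74 ± 0.05 (SE, n = 3 against 3; edgeR adjusted p = 4e-15) at 48 h in clone 1 and 2.36 ± 0.07 (adjusted p = 1.2e-12) at 72 h in clone 3, the times at which the libraries sit with their label. At 24 h the rise was 0.26 ± 0.06 in clone 1 and 0.91 ± 0.07 in clone 3. CIITA thus rose more by 24 h in clone 3, and this difference of the responses was -0.66 ± 0.11 (clone 1 minus clone 3, adjusted p = 1.4e-05).

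HLA-DRA, the alpha chain shared by all HLA-DR molecules, was at 395, 410 and 399 CPM at 0 h in shIRE1 clone 1, at 495, 500 and 512 at 24 h, at 1151, 1201 and 1200 at 48 h and at 1159, 1203 and 1194 at 72 h. In clone 3 it went from 490, 435 and 436 CPM at 0 h through 551, 536 and 556 at 24 h to 1230, 1278 and 1271 at 48 h and 1354, 1326 and 1475 at 72 h. The groups at 0, 24 and 48 h did not overlap in either clone. The log2 fold change was 1.56 ± 0.03 at 48 h in clone 1 (n = 3 against 3, edgeR adjusted p = 3.3e-17) and 1.60 ± 0.05 at 72 h in clone 3 (adjusted p = 3.5e-12). HLA-DRB1, its partner chain, moved by a similar size, from 75.8, 78.5 and 78.8 to 223, 236 and 224 CPM between 0 and 48 h in clone 1 and from 105, 94.1 and 96.7 to 316, 323 and 301 between 0 and 72 h in clone 3. Its log2 fold change was 1.55 ± 0.05 and 1.66 ± 0.06. HLA-DRB1 is highly polymorphic and close in sequence to HLA-DRB5, and reads may have been split between them.

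HLA-DQA1, the alpha chain of HLA-DQ, gave the largest change of a class II chain. It was at 28.2, 31.5 and 26.5 CPM at 0 h in shIRE1 clone 1, at 50.9, 54.1 and 54.0 at 24 h and at 149, 152 and 155 at 48 h. In clone 3 it was at 54.1, 47.8 and 43.7 CPM at 0 h, at 63.2, 64.0 and 64.3 at 24 h and at 189, 182 and 192 at 72 h. The clones started apart and none of these groups overlapped within a clone. The log2 fold change was 2.40 ± 0.05 at 48 h in clone 1 (n = 3 against 3, edgeR adjusted p = 4e-17) and 1.94 ± 0.06 at 72 h in clone 3 (adjusted p = 2.4e-12). HLA-DQB1, its beta chain partner, rose by 1.40 ± 0.05 and 1.35 ± 0.05 in the same comparisons, from 53.3–55.8 to 139–151 CPM in clone 1 and from 71.9–77.5 to 184–195 in clone 3. HLA-DQA1 and HLA-DQA2, and HLA-DQB1 and HLA-DQB2, are paralogs that can share reads.

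HLA-DPA1 and HLA-DPB1, the chains of HLA-DP, rose by unequal amounts. HLA-DPA1 went from 111–117 to 225–230 CPM by 48 h in shIRE1 clone 1 and from 117–127 to 251–259 by 72 h in clone 3, log2 fold changes of 1.01 ± 0.04 and 1.06 ± 0.05. HLA-DPB1 went from 33.4–36.3 to 97.8–100 CPM and from 40.7–48.3 to 118–122, log2 fold changes of 1.51 ± 0.05 and 1.43 ± 0.06. The difference between the chains was seen in both clones and was not tested.

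Of the chains of HLA-DM, HLA-DMA had the smallest rise of the 10 genes in both clones. It was at 51.2–55.1 CPM at 0 h and 91.4–95.4 at 48 h in shIRE1 clone 1, and at 57.0–67.9 at 0 h and 112–123 at 72 h in clone 3, log2 fold changes of 0.81 ± 0.05 and 0.94 ± 0.06. At 24 h in clone 3 its log2 fold change was 0.13 ± 0.06 (n = 3 against 3, edgeR adjusted p = 0.117), the one gene of the 10 not called there. HLA-DMB, the least abundant of the 10, went from 5.01–6.38 to 13.4–14.1 CPM and from 6.04–6.76 to 16.6–18.1, log2 fold changes of 1.23 ± 0.09 and 1.41 ± 0.09. HLA-DMA and HLA-DMB share exons with a readthrough gene on the same strand.

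CD74, the invariant chain and the most abundant of the 10 by count, was at 1181, 1262 and 1317 CPM at 0 h in shIRE1 clone 1, at 1427, 1631 and 1666 at 24 h, at 3277, 3169 and 2891 at 48 h and at 3253, 3095 and 3136 at 72 h. In clone 3 it was at 1681, 1393 and 1522 CPM at 0 h, at 1679, 2056 and 1911 at 24 h, at 3904, 3669 and 3875 at 48 h and at 3877, 3801 and 3351 at 72 h. The groups at 0 and 24 h overlapped in clone 3 and not in clone 1, and all libraries at 48 and 72 h lay above both. The log2 fold change was 1.31 ± 0.06 at 48 h in clone 1 (n = 3 against 3, edgeR adjusted p = 6.6e-13) and 1.25 ± 0.08 at 72 h in clone 3 (adjusted p = 5.9e-09).

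In shXBP1 clone 1 the changes were small and mixed in direction. At 24 h, 26.7% of 16603 genes were called in either direction, and 2124 of the 16603 were called lower. Of the 10 genes, 4 were called, all lower: HLA-DRA (-0.23), HLA-DPA1 (-0.25), HLA-DMA (-0.18) and CIITA (-0.32). At 48 h, 2 were called, where 32% of all genes were, HLA-DPA1 lower (-0.20) and HLA-DQA1 higher (0.34). At 72 h, 4 were called, all higher, where 33.6% of all genes were called in either direction and 16.8% higher. These 4 were HLA-DRA (0.26), HLA-DRB1 (0.30), HLA-DPB1 (0.37) and HLA-DQA1 (0.65). The counts of 4, 2 and 4 of 10 were near what the shares in either direction give. The 4 lower at 24 h and the 4 higher at 72 h were above the shares of all genes in that direction. HLA-DQA1, with the largest change, went from 21.7–23.3 CPM at 0 h to 35.5–35.9 at 72 h. CIITA was at 57.4, 47.4 and 50.0 CPM at 0 h, at 38.3, 47.5 and 40.4 at 24 h, at 54.9, 45.7 and 48.4 at 48 h and at 51.5, 51.7 and 50.4 at 72 h, with overlapping groups at each time. CD74 was not called at any time, and its groups at 0 and 72 h overlapped, at 1448–1737 and 1690–1851 CPM.

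In shXBP1 clone 18, edgeR called none of the 10 genes at 24 h, where 1.59% of 16860 genes were called, and 1 of the 10 passed at an unadjusted p under 0.05. DESeq2 and limma also called 0. At 48 h, 2 were called, both higher, where 5.78% of all genes were, and at 72 h again 2, both higher, where 9.96% were. These were HLA-DMB (0.54 and 0.51) and CIITA (0.53 and 0.49). CIITA was at 40.7, 36.7 and 41.8 CPM at 0 h, at 56.7, 55.6 and 59.8 at 48 h and at 60.1, 52.3 and 54.2 at 72 h, with no overlap between 0 h and the later times. The third replicate at 72 h, which sits with clone 1, lay apart in most of these genes: HLA-DPA1 was at 228, 218 and 87.8 CPM, HLA-DQA1 at 88.3, 86.8 and 34.9 and HLA-DRA at 694, 707 and 437. Without that library, 5 of the 10 were called at 48 h, where 12.9% of all genes were, HLA-DRA (0.25), HLA-DRB1 (0.33), HLA-DPB1 (0.29), HLA-DMB (0.54) and CIITA (0.53), and 4 at 72 h, where 7.57% were, HLA-DRA (0.28), HLA-DRB1 (0.31), HLA-DMB (0.63) and CIITA (0.51). The log2 fold change of HLA-DPA1 at 72 h was -0.43 with it and -0.10 without it, and neither was called.

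**Figure D3:**
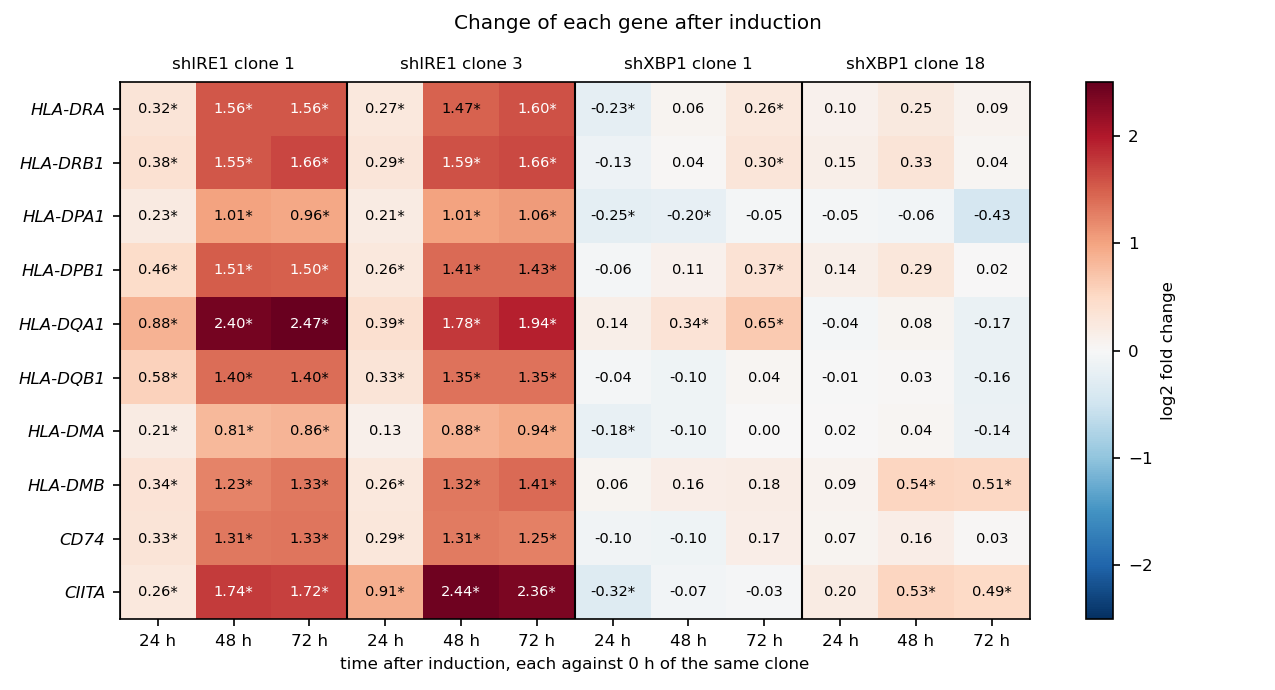
Log2 fold change of each gene (rows) at 24, 48 and 72 h against 0 h of the same clone (columns), from edgeR fits of 12 libraries per clone, with an asterisk where the adjusted p is under 0.05. The shIRE1 columns are positive throughout and reach 2.47 for HLA-DQA1 in clone 1 at 72 h and 2.44 for CIITA in clone 3 at 48 h. Both of these values are from libraries that sit with the other clone than their label. The shXBP1 columns lie between -0.43 and 0.65. The -0.43 is HLA-DPA1 in clone 18 at 72 h, where 1 library sits with clone 1.

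The mean response of the shIRE1 clones minus the mean response of the shXBP1 clones was tested in 1 model of the 48 libraries. The p-values cover the spread between replicates of a clone. They do not cover the spread between clones of a hairpin, so they hold for these clones and not for the hairpins in general. At 24 h, 9 of the 10 genes had a larger response in the shIRE1 clones, where 19.1% of 18445 genes did, and HLA-DMB (0.22 ± 0.11, edgeR adjusted p = 0.101, n = 6 against 6 at each time) was not called. At 48 h all 10 did, where 28.9% of all genes did, and at 72 h again all 10, where 28% did. The differences at 48 h ran from 0.87 ± 0.08 for HLA-DMA to 1.88 ± 0.15 for HLA-DQA1. At 72 h they ran from 0.97 ± 0.08 for HLA-DMA to 1.96 ± 0.15 for HLA-DQA1, with CIITA at 1.81 ± 0.08 and CD74 at 1.19 ± 0.09. When the libraries labelled shIRE1 clone 1, 72 h and shIRE1 clone 3, 48 h were left out, all 10 were still called at 48 and 72 h. HLA-DQA1 was then at 2.18 and 1.69 and CIITA at 1.49 and 2.12 at 48 and 72 h, where each value rests on 1 shIRE1 clone. At 24 h, 7 were called without them, where 37.1% of all genes were called in either direction, and HLA-DRB1 (adjusted p = 0.0531), HLA-DPA1 (0.0706) and HLA-DMB (0.133) were not. When the third replicate of shXBP1 clone 18 at 72 h was left out as well, 9 were called at 24 h, where 38.7% of all genes were, with HLA-DRB1 (edgeR adjusted p = 5.16e-05) and HLA-DPA1 (1.4e-08) among them. All 10 were then called at 48 and 72 h, with HLA-DQA1 at 1.52 and CIITA at 2.11 at 72 h. Leaving out that replicate alone gave 9, 10 and 10 calls at the 3 times, and differences at 72 h from 0.88 for HLA-DMA to 1.79 for HLA-DQA1 and CIITA.

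**Figure D4:**
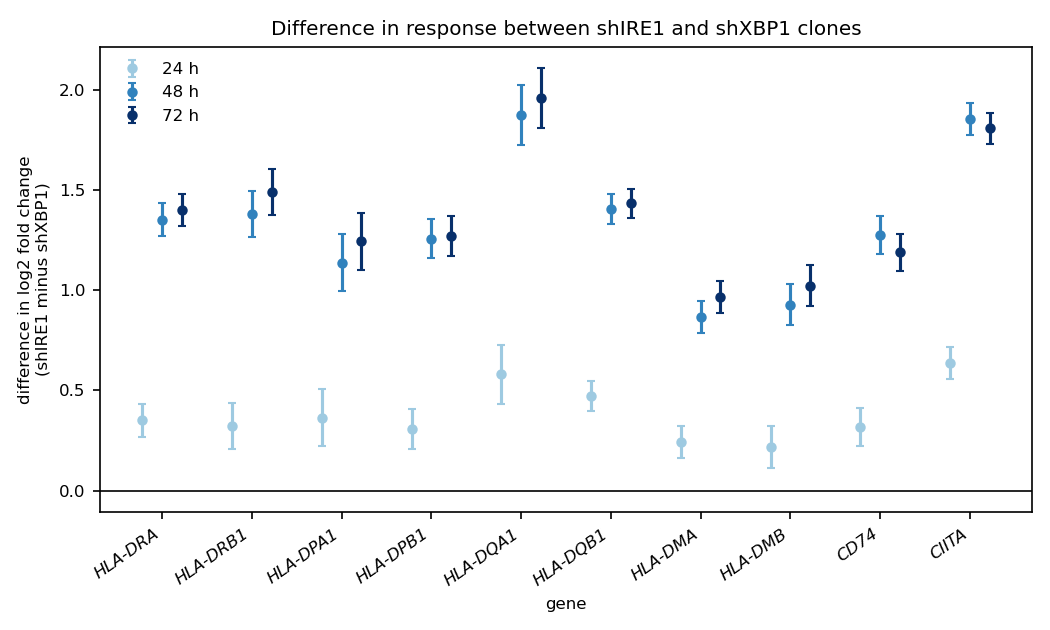
Difference in log2 fold change between the shIRE1 and the shXBP1 clones (points, with bars of 1 SE from the edgeR model of 48 libraries) for each gene at 24, 48 and 72 h. The differences at 48 and 72 h lie between 0.87 and 1.96, above those at 24 h, which lie between 0.22 and 0.64.

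The clones of a hairpin differed before any doxycycline. Between shIRE1 clones 1 and 3 at 0 h, 6 of the 10 genes were called, where 40.6% of all genes were: HLA-DRB1 (-0.34), HLA-DPB1 (-0.36), HLA-DQA1 (-0.75), HLA-DQB1 (-0.45) and CD74 (-0.29) were lower in clone 1, and CIITA (0.53) was higher. Between shXBP1 clones 1 and 18 at 0 h, 9 were called, where 51.3% of all genes were, 8 of them lower in clone 1, from CD74 (-0.29) to HLA-DPA1 (-1.42) and HLA-DQA1 (-1.82). CIITA was again the one that was higher in clone 1 (0.38), and HLA-DMB (-0.25) was not called. In both pairs, then, the clone with more CIITA mRNA at 0 h had less mRNA of every class II gene that was called. HLA-DPA1 in shXBP1 clone 18 at 0 h, at 238, 239 and 243 CPM, lay above its level in shIRE1 clone 1 after 48 h of induction, at 228, 230 and 225 CPM. The HLA-DQA1 gap between shXBP1 clones, 21.7–23.3 against 78.3–79.0 CPM, was smaller than the rise of HLA-DQA1 in either shIRE1 clone, and the 2 sizes were not tested against each other.

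The responses of the clones to the same hairpin were compared as well. Between the shIRE1 clones only CIITA was called at 24 h (-0.66 ± 0.11, clone 1 minus clone 3), where 28.2% of all genes were. CIITA (-0.71 ± 0.11) and HLA-DQA1 (0.62 ± 0.21) were called at 48 h, where 30.8% of all genes were, and CIITA alone (-0.65 ± 0.11) at 72 h, where 27.5% were. For the other 8 genes the difference lay between -0.11 and 0.25 at the 3 times. The values at 48 and 72 h set libraries against each other that sit with the other clone than their label. Without the third replicate of shXBP1 clone 18 at 72 h, which shares this model, HLA-DQA1 (0.48) and HLA-DQB1 (0.24) were also called at 24 h and HLA-DQA1 (0.52) at 72 h, where 30.3% and 29.7% of all genes were. Between the shXBP1 clones only CIITA was called at 24 h (-0.50 ± 0.11, clone 1 minus clone 18), where 17.1% of all genes were, and at 48 h (-0.59 ± 0.11), where 24.1% were. At 72 h, HLA-DPB1 (0.38), HLA-DQA1 (0.85) and CIITA (-0.50) were called, where 24.6% of all genes were. Without the third replicate of clone 18 at 72 h, 4 genes were called at 24 h, HLA-DRA (-0.33), HLA-DRB1 (-0.27), HLA-DPA1 (-0.19) and CIITA (-0.52), where 19.6% of all genes were. At 48 h 6 were called without it, where 26.6% were, HLA-DRA (-0.20), HLA-DRB1 (-0.30), HLA-DPA1 (-0.15), HLA-DQA1 (0.25), HLA-DMB (-0.39) and CIITA (-0.61). At 72 h, where 19.8% were called, the calls without it were HLA-DQA1 (0.49), HLA-DMB (-0.45) and CIITA (-0.55), and HLA-DPB1 (0.14) was not called.

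The remaining class II genes also rose in the shIRE1 clones. Of HLA-DRB5, HLA-DQA2, HLA-DQB2, HLA-DOA and HLA-DOB, 4 of 5 rose at 72 h in shIRE1 clone 1 and 5 of 5 in clone 3, where 32.5% and 29.7% of all genes did, with median log2 fold changes of 1.89 and 1.28. HLA-DRB5, HLA-DQA2 and HLA-DQB2 can share reads with HLA-DRB1, HLA-DQA1 and HLA-DQB1, so their calls may in part repeat the results of those genes. HLA-DOA, the alpha chain of HLA-DO, which inhibits HLA-DM, rose by 2.39 ± 0.04 and 1.89 ± 0.05. HLA-DOB, its partner chain, changed by 0.10 ± 0.10 in clone 1 (n = 3 against 3, edgeR adjusted p = 0.4) and rose by 0.62 ± 0.13 in clone 3. At 48 h in clone 1, where the libraries sit with their label, HLA-DOB rose by 0.25 ± 0.10 (edgeR adjusted p = 0.032). HLA-DQA2 rose by 2.15 and 1.28, HLA-DRB5 by 1.89 and 1.78 and HLA-DQB2 by 1.36 and 1.09. The clone 1 values at 72 h are from libraries that sit with clone 3. At 48 h in clone 1, HLA-DOA rose by 2.28, HLA-DQA2 by 2.12, HLA-DRB5 by 1.81 and HLA-DQB2 by 1.40. In shXBP1 clone 1, 2 of 5 rose at 72 h, where 16.8% of all genes did, HLA-DOA (0.66) and HLA-DQA2 (0.46), and in clone 18 edgeR called none, with 1 at an unadjusted p under 0.05.

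PRDM1, the repressor named above, fell in the shIRE1 clones. It was at 297, 293 and 297 CPM at 0 h in clone 1, at 181, 182 and 182 at 24 h, at 152, 146 and 143 at 48 h and at 139, 139 and 142 at 72 h. In clone 3 it was at 244, 238 and 236 CPM at 0 h, at 180, 192 and 186 at 24 h, at 132, 139 and 134 at 48 h and at 119, 113 and 122 at 72 h. No library after induction overlapped those at 0 h, and the log2 fold change was -1.01 ± 0.04 at 48 h in clone 1 and -1.03 ± 0.05 at 72 h in clone 3. In shXBP1 clone 1 PRDM1 changed by -0.18, -0.16 and -0.12 at 24, 48 and 72 h, of which the first 2 were called, and in clone 18 by 0.28, 0.19 and 0.15, of which again the first 2 were called. The response differed between the shIRE1 and the shXBP1 clones by -0.94 ± 0.04 at 48 h and -1.07 ± 0.04 at 72 h (n = 6 against 6 libraries at each time, edgeR adjusted p = 1.1e-22 and 2.6e-24). Within the shIRE1 clones the fall of PRDM1 at 24 h was -0.71 in clone 1 and -0.37 in clone 3 and the rise of CIITA was 0.26 and 0.91. The part of PRDM1 in the rise of CIITA was not tested.

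Of 15 regulators of B cell and plasma cell identity, 12 were measured above the filter on low counts in the shIRE1 clones, and at 72 h 4 rose and 6 fell in clone 1, where 32.5% of all genes rose and 31.1% fell, and 4 rose and 7 fell in clone 3, where 29.7% rose and 30.5% fell. IRF4, a factor that plasma cells depend on, fell from 1301 to 576 CPM at 48 h in clone 1 (log2 fold change -1.17 ± 0.04) and from 1423 to 335 CPM at 72 h in clone 3 (-2.10 ± 0.06). SPIB, a factor of the Ets family, fell by 1.44 and 1.55 on the log2 scale at 72 h. IRF8, a factor of B cells and myeloid cells, rose at 72 h by 3.22 ± 0.19 and 5.79 ± 0.27. For clone 1 the values at 72 h are from libraries that sit with clone 3. In the shXBP1 clones IRF8 was under the filter, and the difference of the responses could not be estimated (3.03 ± 30.7 at 72 h). The B cell factor PAX5 had a mean of at most 0.0206 CPM in any group.

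**Figure D5:**
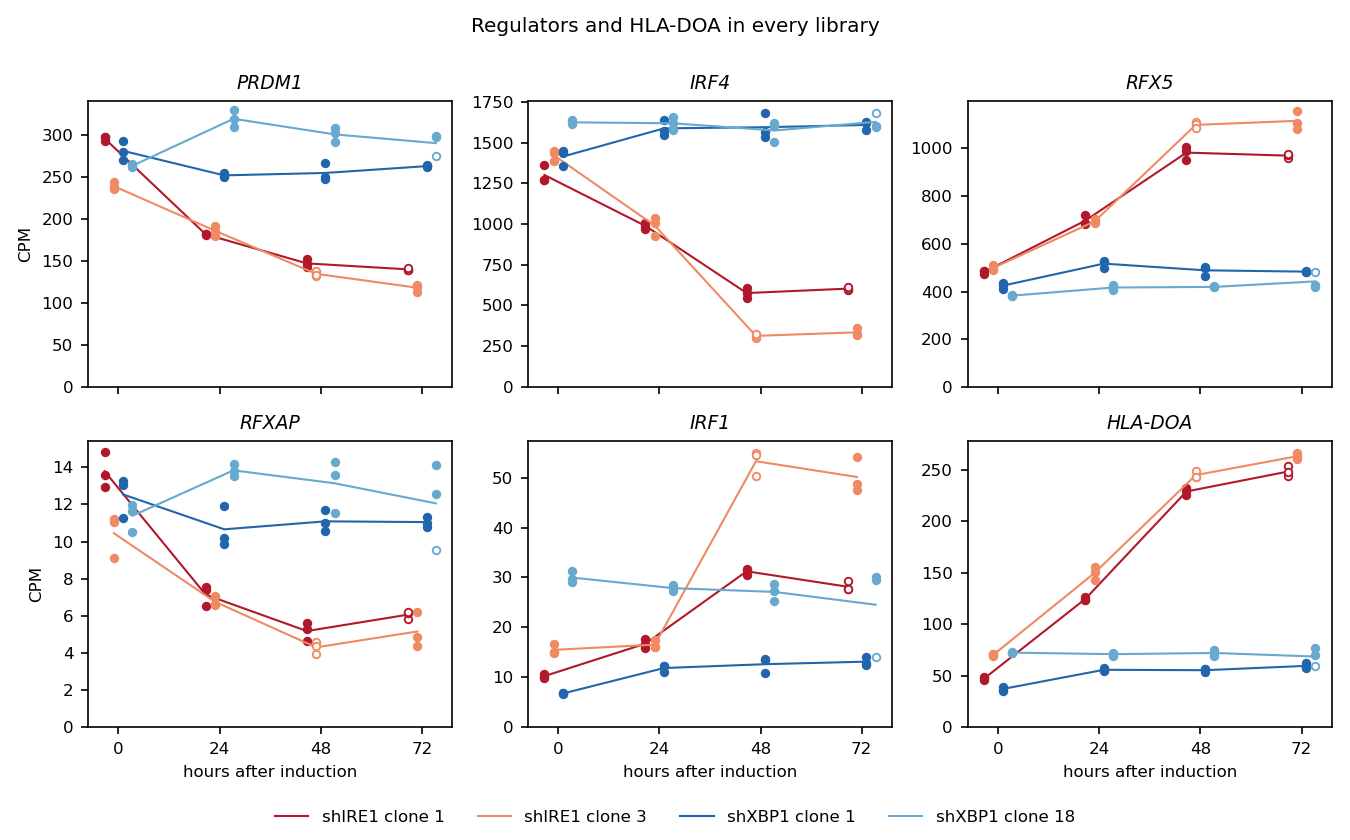
CPM (y axes, from 0) of PRDM1, IRF4, RFX5, RFXAP, IRF1 and HLA-DOA in every library (points) at 0, 24, 48 and 72 h, with lines through the group means of 3 libraries and open circles for libraries that sit with another clone than their label. PRDM1, IRF4 and RFXAP fall and RFX5, IRF1 and HLA-DOA rise in both shIRE1 clones, with PRDM1 going from 296 to 140 CPM under the label clone 1. The 140 CPM is the mean at 72 h, of libraries that sit with clone 3.

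Among the factors that occupy class II promoters some rose and some fell. Of 9 genes on this list (RFX5, RFXAP, RFXANK, NFYA, NFYB, NFYC, CREB1, CREBBP and EP300), 2 rose and 3 fell at 72 h in shIRE1 clone 1 and 3 rose and 4 fell in clone 3, with medians of -0.07 and -0.12, beside the same shares of all genes. Within the RFX complex, which binds the X box, RFX5 rose by 1.01 ± 0.03 and 1.15 ± 0.04 and RFXANK by 0.33 ± 0.08 and 0.44 ± 0.11. RFXAP, the remaining subunit, fell by 1.19 and 1.04 on the log2 scale. NFYB, a subunit of NF-Y on the Y box, fell by 0.33 and 0.74. The libraries of clone 1 at 72 h, used here, sit with clone 3. In the shXBP1 clones, RFX5 changed by 0.17 and 0.22 at 72 h, both called, and RFXAP by -0.21 and 0.08, neither called. An RNA annotated antisense to RFX5 overlaps its exons, and whether the counting used strand is not given in the sources used here.

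Interferon gamma signalling, which induces CIITA in many cell types, was a further list of 9 genes. At 72 h 6 rose and 1 fell in shIRE1 clone 1, and 6 rose and 2 fell in clone 3, where 32.5% and 29.7% of all genes rose. The clone 1 libraries at 72 h sit with clone 3. IRF1, a transcription factor of this pathway, rose by 1.46 ± 0.07 and 1.68 ± 0.08, and the kinase JAK1 by 0.78 and 0.85. SOCS1, the feedback inhibitor of this signalling, rose by 3.38 ± 0.43 and 2.91 ± 0.32 from 1, 4 and 2 reads at 0 h in clone 1 and 3, 2 and 6 reads in clone 3. In shXBP1 clone 1, 6 of the 8 genes measured also rose at 72 h, where 16.8% of all genes did, IRF1 by 0.94 ± 0.10. In clone 18 edgeR called none, with 2 at an unadjusted p under 0.05. The part of these genes in the rise of class II was not tested.

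Of 9 genes for the processing and turnover of class II and its peptides, 7 were measured, and CTSL was listed at 0 in all groups and IFI30 at a mean of at most 0.0309 CPM. At 72 h 5 rose and 2 fell in shIRE1 clone 1, and 2 rose and 4 fell in clone 3, beside the shares of all genes given for the regulators. MARCHF1 and MARCHF8, ubiquitin ligases that act on class II and other surface proteins, rose by 0.53 and 0.77 and by 0.40 and 0.51. The protease genes LGMN and CTSD were named for the shXBP1 clones, where LGMN rose at 72 h by 1.33 and 0.28 and CTSD fell by 1.31 and 0.73 on the log2 scale. LGMN at 48 h rose by 1.29 in the libraries labelled shIRE1 clone 1 and fell by 0.42 in those labelled clone 3, which sit with clone 1.

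Markers of cell types were followed beside these genes. Over 8 plasma cell markers the summed level fell in shIRE1 clone 1 from 14100–15800 to 8960–9510 CPM between 0 and 72 h and in clone 3 from 17100–18800 to 7370–9180. It also fell in the shXBP1 clones, from 17400–20800 to 13000–14100 and from 18200–18600 to 13100–15300 CPM. TNFRSF17 (BCMA) fell by 1.21 and 2.54 and JCHAIN, the joining chain of polymeric antibodies, by 1.09 and 2.03 on the log2 scale at 72 h in the shIRE1 clones, and MZB1, a chaperone of antibody assembly, by 1.29 and 1.60 in the shXBP1 clones. Over 7 B cell markers the sum rose from 16.1–17.6 to 20.6–20.9 CPM in shIRE1 clone 1 and from 11.3–12.2 to 21.0–21.1 in clone 3, although 4 of the 7 averaged under 1 CPM over the 48 libraries. MS4A1 (CD20) rose by 3.05 and 3.44 to means of 1.97 and 1.49 CPM, and CR2 (CD21) by 1.59 and 2.40 to 9.73 and 10.1 CPM. CD83, an activation marker, fell in clone 1 by 0.79 from 12.8 to 7.44 CPM and changed by 0.03 in clone 3, and FCER2 (CD23) rose in clone 1 by 1.73 to 1.61 CPM and changed by -0.24 in clone 3, both of the clone 3 values not called. CD22 had a mean of at most 0.0312 CPM in any group. Over 4 T cell markers the sum rose from 8.90–10.5 to 15.2–18.0 CPM in shIRE1 clone 1 and from 9.38–10.5 to 15.4–15.8 in clone 3, and most of it was CD3E, a chain of the T cell receptor complex, which rose by 1.44 and 0.82 to 15.1 and 14.3 CPM. CD247, the zeta chain of that complex, fell in clone 1 by 1.46 on the log2 scale, from 4.06 to 1.48 CPM, and changed by -0.58 in clone 3 (edgeR adjusted p = 0.0509). CD3D and CD2 were at a mean of at most 0.0206 CPM in every group of these clones. Among these markers too, the values of shIRE1 clone 1 at 72 h are from libraries that sit with clone 3. The 4 myeloid markers summed to at most 0.822 CPM and the 4 dendritic cell markers to at most 2.86 CPM at 0 and 72 h in every clone, with FCGR1A at 0 in all libraries. The part of other cell types or of a cell state in the rise of class II was not tested.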

How the data were processed

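RNA was measured in 48 libraries of 4 AMO1 clones as single-end 50-base reads. The authors deposited raw read counts for 58302 genes and a log2 table for 18401 genes, which equals edgeR's log2 CPM with a prior count of 2. Per the labels' processing notes, the tools were GSNAP 2013-10-10, R 4.1.3, edgeR 3.32.1 and limma 3.46.0 with GRCh37/hg19. The related methods name another build, so coordinates here are those of GRCh38.p14 in RefSeq and not of the counts. Strand use in counting is not given in the sources used here.

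The counts were fitted with edgeR 4.0.16 in R 4.3.3 (TMM factors of 0.924 to 1.09, filterByExpr with a minimum count of 10 and a minimum total of 15, quasi-likelihood test). Each clone was fitted on its 12 libraries, and differences between hairpins or clones on all 48. Adjustment ran across the whole set of genes in a fit, calls needed an adjusted p under 0.05, and CPM used TMM-scaled totals over the 48 libraries. With total counts from 19177855 to 40767202, 3 reads stood for at most 0.168 CPM. The labels call the 3 replicates of a group biological, and p-values cover the spread between them. No 2 libraries of the same group agreed within sampling noise, and libraries of different groups were not compared in this way. The fits were tested on simulated data: for shIRE1 clone 1 at 48 h, on 17154 genes, 138 of 200 changed genes were recovered, 82 of 100 with the larger and 56 of 100 with the smaller fold, and 4.83% of calls were false. In the data, 65.4% of these genes were called at 48 h. The simulation held far fewer changed genes, so its rates need not hold for the data.

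The 10 genes and all gene lists were chosen with earlier results of these data known. Named besides them were PRDM1, IRF4, XBP1 and ERN1, up to 4 genes per list with the largest change at 72 h called in the same direction in both clones of a hairpin, and the 3 genes most like CD74 and CIITA. HLA-DOB, PAX5, CD22, CD83, FCER2, CD247, CD3D, CD2, CTSL, IFI30 and FCGR1A are also named and were chosen after their values were seen, as was the library check. Some members of the lists are not reported here. Replicate numbers did not pair samples. Same-numbered samples correlated between -0.41 and 0.25, and 5 of 72 correlations were over 0.1. Alternatives were RLE factors, no filter on low counts, DESeq2 1.42.0, limma 3.58.1 on the deposited log2 table, a replicate block, other sets of libraries and leaving out each library.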

Additional observations from a re-analysis of the deposited data

Results flagged for a closer look

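The difference between the responses of the shIRE1 and the shXBP1 clones at 72 h passed edgeR's quasi-likelihood test for each of the 10 genes. It was 1.40 for HLA-DRA, 1.49 for HLA-DRB1, 1.25 for HLA-DPA1, 1.27 for HLA-DPB1 and 1.96 for HLA-DQA1 on the log2 scale. It was 1.43 for HLA-DQB1, 0.97 for HLA-DMA, 1.02 for HLA-DMB, 1.19 for CD74 and 1.81 for CIITA.

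The response of CIITA also differed between clones of 1 hairpin at all 3 times. It was -0.66, -0.71 and -0.65 for shIRE1 clone 1 minus clone 3 at 24, 48 and 72 h, and -0.50, -0.59 and -0.50 for shXBP1 clone 1 minus clone 18. HLA-DQA1 differed by 0.62 between the shIRE1 clones at 48 h and by 0.85 between the shXBP1 clones at 72 h, where HLA-DPB1 differed by 0.38. Without the third replicate of shXBP1 clone 18 at 72 h, the HLA-DPB1 difference was 0.14 and that of HLA-DQA1 between the shXBP1 clones 0.49.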

How the results depend on the processing

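Counts of the 10 genes called in the shIRE1 clones against 0 h were 8 to 10 under the alternatives that left out no single library, and 7 to 9 at 24 h in clone 3 and 10 elsewhere with 1 library left out. The response difference between hairpins was called for 10 at 48 and 72 h in every fit and for 7 to 9 at 24 h. The small counts in the shXBP1 clones depended on the fit. In clone 1 at 24 h, 4 became 2 with the replicate block, 2 with only the 6 libraries compared and 1 in the fit of all 48 libraries, and 2 to 4 with 1 library left out, the libraries that lowered it being replicates 1 and 3 at 0 h, 1 and 3 at 24 h, 3 at 48 h and each at 72 h. At 48 h there, 2 became 1 with no filter on low counts and 0 with all 48 libraries. In clone 18 at 48 h, 2 became 5 with no filter and 5 with only the 6 libraries, and 1 to 5 with 1 library left out. At 72 h, 2 became 1 with only the 6 libraries and 1 to 4 with 1 left out, where dropping the third replicate at 72 h gave the 5 and the 4, and each 0 h library, replicates 1 and 2 at 48 h (for 48 h) and replicate 1 at 72 h (for 72 h) also moved them. Between shIRE1 clones, the count of differing responses at 24 h went from 1 to 2 with no filter and to 3 without all libraries that sit with another clone, and that at 72 h from 1 to 2 with no filter. Leaving out 1 library gave 1 to 3, 1 to 2 and 1 to 2 at 24, 48 and 72 h, with 3 at 24 h without the third replicate of shXBP1 clone 18 at 72 h. Between shXBP1 clones, the count at 24 h went from 1 to 2 with RLE factors, no filter, DESeq2 or limma on the log2 table and to 4 without those libraries. At 48 h it went from 1 to 2 with no filter and to 6 without those libraries, and at 72 h from 3 to 5 with no filter. Leaving out 1 library gave 1 to 4, 1 to 6 and 2 to 6, and the third replicate of clone 18 at 72 h was among those that moved the counts at 24 and 48 h and replicates 1 and 2 those at 72 h. At 0 h it gave 4 to 8 between shIRE1 clones and 8 to 9 between shXBP1 clones. The causes were not tested. The response difference of LGMN at 48 h, -0.04 and between -0.09 and -0.02 with 1 library left out, became 0.80 without the libraries labelled shIRE1 clone 1, 72 h and clone 3, 48 h, and 0.79 also without the third replicate of shXBP1 clone 18 at 72 h. Over all genes, calls in shXBP1 clone 18 at 24, 48 and 72 h, 268, 974 and 1680, were 821, 2223 and 1300 without that library. At 24 h they were 559 with DESeq2, 562 with no filter, 874 with 6 libraries and 838 with 48. At 48 h they were 2983 and 2013 with 6 and 48 libraries, and at 72 h 444 and 3345, and 2712 with no filter. Those of shXBP1 clone 1 at 24 h went from 4430 to 2086 with 6 libraries. The calls from 48 to 72 h went from 149 to 249 with no filter and 77 with 48 libraries in shIRE1 clone 1, and from 161 to 873 with no filter and 104 with the replicate block in clone 3. The higher and lower calls in clone 18 at 24 h were 49 and 219 with and 250 and 571 without the third replicate at 72 h. The alternatives on identity of libraries, on the steps between times and on tools for clone differences were chosen after seeing the data.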

Other observations

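Over the 16 group means, the genes outside the list whose log2 CPM followed CD74 most closely among 12012 genes were CXXC4, NIPAL2 and CPNE1, with Pearson correlations of 0.969, 0.954 and 0.954. Over the 14 groups left without the libraries that sit with another clone than their label, the correlations were 0.949, 0.936 and 0.932. For CIITA they were ASAP2, AC133065.4 and AL391069.3, with correlations of 0.975, 0.974 and 0.974, and 0.967, 0.970 and 0.965 over the 14 groups. The groups share clones, and the values are a description. AL391069.3 is the RNA annotated antisense to RFX5, with 122 exon bases shared with it, so its reads may partly be those of RFX5.

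In the annotation, CIITA shares 10.7% of its exon bases with DEXI on the opposite strand and 10.5% with an unnamed gene on the same strand. HLA-DQB1 shares 4.92% with its antisense RNA.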
